A study of Mus musculus with 29 samples.

Results

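Transforming growth factor β (TGF-β) reaches the cell as a ligand that binds a type II receptor, which then phosphorylates a type I receptor. The active receptor complex phosphorylates the receptor-regulated SMAD proteins, which join the common SMAD and enter the nucleus to regulate target genes, while an inhibitory SMAD and a pair of nuclear corepressors restrain the response. In bone marrow this pathway is known as a brake on the division of hematopoietic stem cells (HSC). The expression of 10 genes of the pathway was examined: the ligand gene Tgfb1, the receptor genes Tgfbr1, Tgfbr2 and Tgfbr3, the SMAD genes Smad2, Smad3, Smad4 and Smad7, and the corepressor genes Ski and Skil. They were taken by gene symbol from a table of 30025 genes, each symbol was found once, and all 10 passed the filter for expressed genes together with 15399 others.

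RNA-Seq libraries came from C57BL/6J mice aged 12.42 to 13.85 weeks that were either wild-type (WT) or heterozygous for a germ line deletion on chromosome 5 between Fbxl13 and Srpk2 (5A3+/del), a model of the human 7q22 deletions of myeloid malignancy. The deletion is present in all cells of a 5A3+/del mouse, so effects within the sorted cells and effects of the marrow around them cannot be told apart. From 5 WT and 5 5A3+/del mice, Kit+ Lin- Sca-1+ cells without CD41 and CD48 were sorted by CD150 into CD150hi HSC, CD150lo HSC and CD150neg multipotent progenitors (MPP, named HSC in the sample labels). Each mouse gave 1 library per population, except that no CD150neg MPP library of 5A3+/del mouse 5 was analysed, which leaves 29 libraries in 6 groups of 5 or 4. CD150 is encoded by Slamf1, whose deposited FPKM was 9.97 to 22.6 in CD150hi HSC, 0.180 to 2.64 in CD150lo HSC and 0.00951 to 0.296 in CD150neg MPP, in the order of the gates.

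Values are FPKM, fragments scaled to exon length and to library size. They were quantile normalised on the log2(FPKM + 1) scale and transformed back (normalised FPKM). Exon length is thereby allowed for, but whether the amplified RNA keeps genes comparable with each other was not tested. Log2 differences are on the log2(FPKM + 1) scale, which understates the change of low genes. Between 21229490 and 38797569 fragments underlay a library, and a single member was covered by 375 to 6661 fragments, which were amplified and carry no molecular identifiers. The 3 libraries of WT mouse 3 stood apart: Xist was at 234 to 319 FPKM in them and at most 0.470 FPKM in the other 26, whereas Ddx3y was at most 0.0687 FPKM in them and at least 11.4 FPKM elsewhere. Results are therefore also given without this mouse where it matters. In bulk RNA, fewer cells that express a gene and less RNA per cell cannot be told apart.

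Of the 10 genes, the co-receptor gene Tgfbr3 was the one whose level differed between the sorted populations by more than the spread between mice. It was highest in CD150hi HSC, by 1.18 on the log2 scale over CD150lo HSC and by 1.71 over CD150neg MPP, in both genotypes. The ligand, the signalling receptors, the SMADs and the corepressors differed between populations by 0.38 or less on the log2 scale in either direction, and none of these differences passed the test in the main fit. Tgfbr1, Tgfbr2 and Ski passed it in some alternative fits or with a mouse left out. No member passed the test between 5A3+/del and WT mice in any population. The lowest unadjusted p of those genotype comparisons belonged to the inhibitory SMAD gene Smad7 in CD150hi HSC.

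On the FPKM scale the members were expressed at middle to high levels, with means over the 29 libraries from 8.61 for Tgfbr1 to 19.5 for Smad3, above 61.4% and 83.7% of the 15409 genes tested. The order of the means was Smad3, Smad4 (17.3), Ski (16.2), Tgfb1 (16.1), Smad2 (13.5), Tgfbr3 (11.5), Smad7 (9.61), Tgfbr2 (8.66), Skil (8.65) and Tgfbr1. The ranges of every gene and its next lower neighbour overlapped, in each population as well as over all libraries, so this order is not resolved between neighbours. Tgfbr3 changed its place most: it had rank 2 of 10 in CD150hi HSC with a mean of 20.5 ± 8.19 (SD, n = 10), and rank 10 of 10 in CD150lo HSC at 8.15 ± 1.74 (n = 10) and in CD150neg MPP at 5.22 ± 0.927 (n = 9). Differences between populations made up 82.5% of the sum of squares of its log2 values, against 8.99% for Smad7, the lowest member, and 26.5% for Tgfbr1, the next highest, with a median of 8.87% over all genes tested.

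**Figure D1:**
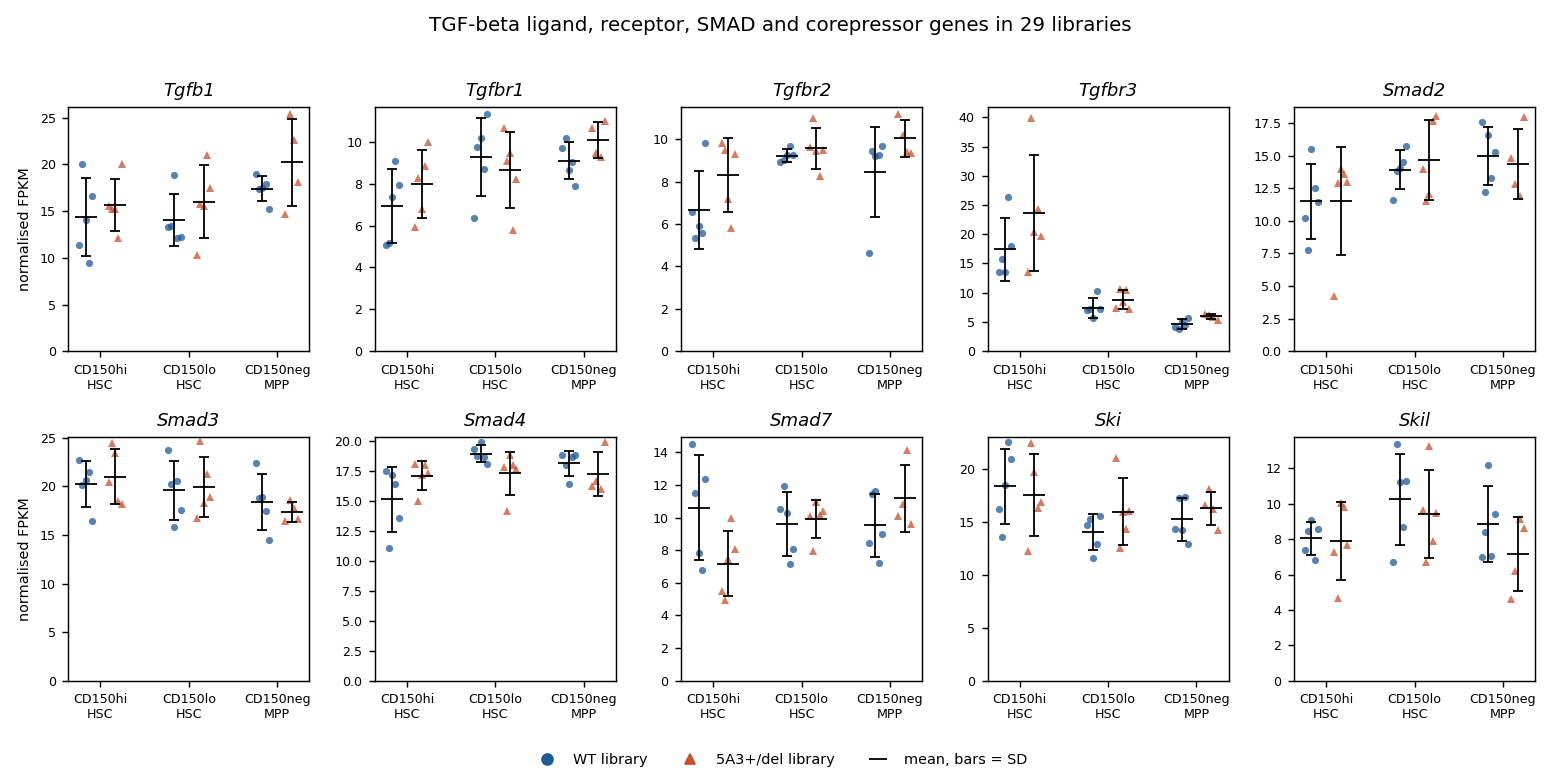
Normalised FPKM (vertical axes, each from 0) of the 10 genes in CD150hi HSC, CD150lo HSC and CD150neg MPP, with circles for WT libraries, triangles for 5A3+/del libraries, and the mean with its SD for each group of 5 (4 for 5A3+/del CD150neg MPP). Tgfbr3 lies between 13.5 and 39.9 in CD150hi HSC and between 3.85 and 10.6 in the other populations, whereas the populations of every other gene overlap.

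Tgfb1, on chromosome 7 (mm9, 26472021 to 26490096, plus strand), encodes the TGF-β1 ligand. In WT CD150hi HSC its normalised FPKM was 11.4, 20.03, 14.1, 9.47 and 16.6, and in 5A3+/del CD150hi HSC it was 15.5, 15.2, 15.2, 12.1 and 20.003. CD150lo HSC had 13.3, 13.5, 18.9, 12.2 and 12.3 in WT and 10.3, 15.7, 15.5, 21.0 and 17.5 in 5A3+/del mice. CD150neg MPP had 19.0, 17.3, 17.4, 17.9 and 15.3 in WT and 14.7, 25.3, 22.6 and 18.2 in 5A3+/del mice. Values in CD150neg MPP were toward the upper part of the range, and the groups overlapped everywhere. CD150hi HSC minus CD150neg MPP was -0.32 (SE 0.14, adjusted p = 0.128), with the ligand lower in CD150hi HSC in 6 of 9 mice, and CD150lo HSC minus CD150neg MPP was -0.32 (SE 0.14, adjusted p = 0.540), lower in 7 of 9 mice. The 5A3+/del mean was above the WT mean in each population, by 0.14, 0.16 and 0.18 on the log2 scale in CD150hi HSC, CD150lo HSC and CD150neg MPP, with every 95% confidence interval spanning 0.

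Tgfbr1, on chromosome 4 (47366094 to 47427803, plus strand), and Tgfbr2, on chromosome 9 (115993415 to 116084383, minus strand), encode the type I and type II receptors that carry the signal. Tgfbr1 had a normalised FPKM of 5.08, 5.15, 7.35, 9.08 and 7.95 in WT CD150hi HSC and of 5.92, 8.28, 6.79, 8.84 and 10.0 in 5A3+/del CD150hi HSC. CD150neg MPP had 9.69, 10.2, 8.65, 9.04 and 7.90 in WT and 10.6, 9.44, 9.29 and 11.0 in 5A3+/del mice, so 5 of 10 CD150hi libraries lay below the lowest CD150neg library and 5 did not. CD150hi HSC minus CD150neg MPP was -0.35 (SE 0.12, adjusted p = 0.0538), just outside the threshold, with Tgfbr1 lower in CD150hi HSC in 7 of 9 mice. It stayed outside in 8 of 12 alternatives and in 7 of 10 fits with a mouse left out. The stricter filter, no quantile normalisation and median scaling took it past the threshold (limma adjusted p = 0.0498, 0.0313 and 0.0444), as did voom. The WT means were 6.92 ± 1.76 (SD, n = 5), 9.27 ± 1.87 (n = 5) and 9.09 ± 0.889 (n = 5) in CD150hi HSC, CD150lo HSC and CD150neg MPP, and the 5A3+/del means 7.97 ± 1.63 (n = 5), 8.63 ± 1.82 (n = 5) and 10.1 ± 0.858 (n = 4).

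Tgfbr2 had 6.59, 5.32, 5.91, 5.59 and 9.84 in WT CD150hi HSC and 9.83, 9.50, 7.19, 5.80 and 9.30 in 5A3+/del CD150hi HSC. CD150lo HSC had 8.93, 9.00, 9.25, 9.69 and 9.25 in WT and 9.66, 11.0, 9.43, 8.28 and 9.48 in 5A3+/del mice, with an SD of 0.299 in WT. In CD150neg MPP it was 4.65, 9.44, 9.23, 9.27 and 9.68 in WT and 11.2, 10.2, 9.38 and 9.35 in 5A3+/del mice, with WT mouse 1 far below the rest. CD150hi HSC minus CD150lo HSC was -0.32 (SE 0.12, adjusted p = 0.0917), with Tgfbr2 lower in CD150hi HSC in 8 of 10 mice. Without WT mouse 5, whose CD150hi library had the value of 9.84, the difference was -0.39 (adjusted p = 0.0420). CD150hi HSC minus CD150neg MPP was -0.28 (SE 0.12, adjusted p = 0.132), and -0.37 without WT mouse 1 (adjusted p = 0.0230). In CD150hi HSC the 5A3+/del mean was 8.33 ± 1.75 (n = 5) and the WT mean 6.65 ± 1.85 (n = 5), a difference of 0.29 (95% confidence interval -0.04 to 0.63, adjusted p = 0.458).

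Tgfbr3 encodes betaglycan, a co-receptor that has no kinase of its own and presents ligand to the type II receptor, and also binds inhibins and bone morphogenetic proteins. It lies on chromosome 5 (107535589 to 107718648, minus strand), 84.4 Mb beyond the end of Srpk2 and so outside the deleted interval, in which no member lies. In WT CD150hi HSC its normalised FPKM was 13.5, 15.7, 13.5, 26.4 and 18.01, and in 5A3+/del CD150hi HSC it was 13.5, 39.9, 20.3, 24.3 and 19.7. CD150lo HSC had 7.00, 7.15, 5.61, 10.3 and 7.26 in WT and 7.36, 10.6, 8.43, 10.49 and 7.25 in 5A3+/del mice. CD150neg MPP had 4.06, 3.85, 5.19, 4.44 and 5.71 in WT and 6.34, 6.27, 5.89 and 5.27 in 5A3+/del mice. Every CD150hi library lay above every CD150lo and CD150neg library, and the CD150lo and CD150neg ranges overlapped at the border, between 5.61 and 6.34.

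Tgfbr3 rose in CD150hi HSC over CD150lo HSC by 1.18 on the log2 scale (SE 0.15, limma adjusted p = 1.99e-06), and the ratio within a mouse was 1.84 to 3.76 with a median of 2.41 (higher in 10 of 10 mice). It rose over CD150neg MPP by 1.71 (SE 0.15, adjusted p = 2.22e-09), with a ratio of 2.13 to 6.37 and a median of 3.45 (higher in 9 of 9 mice). The Tgfbr3 value of CD150lo HSC was above that of CD150neg MPP in 9 of 9 mice, with a median ratio of 1.69, but the log2 difference of 0.53 (SE 0.15) had an adjusted p of 0.162. Of the alternatives tried, 1 took it past the threshold, the fit of the compared groups alone (adjusted p = 0.0411). The 3 population contrasts share libraries and are not independent of each other.

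With the contrast taken within a genotype, CD150hi HSC minus CD150lo HSC was 1.10 in WT (limma adjusted p = 0.00136) and 1.25 in 5A3+/del mice (adjusted p = 0.000315). CD150hi HSC minus CD150neg MPP was 1.67 in WT (adjusted p = 1.89e-06) and 1.74 in 5A3+/del mice (adjusted p = 3.48e-06). Both genotypes stayed in the fit of all 29 libraries and shared its estimate of the spread, so these p-values are not from separate fits. The genotype effect in CD150hi HSC minus that in CD150lo HSC was 0.15 (95% confidence interval -0.45 to 0.75, adjusted p = 0.999). Leaving out each mouse in turn gave 1.11 to 1.23 for CD150hi HSC minus CD150lo HSC and 1.62 to 1.80 for CD150hi HSC minus CD150neg MPP, and the values without WT mouse 3 were 1.17 (adjusted p = 1.53e-05) and 1.76 (adjusted p = 2.16e-08). The 5A3+/del mean of Tgfbr3 was above the WT mean in each population, by 0.37, 0.22 and 0.31 on the log2 scale in CD150hi HSC, CD150lo HSC and CD150neg MPP (adjusted p = 0.451, 0.944 and 1.00). Without 5A3+/del mouse 2, which had the highest value of all, the difference in CD150hi HSC was 0.17 (adjusted p = 0.760).

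**Figure D2:**
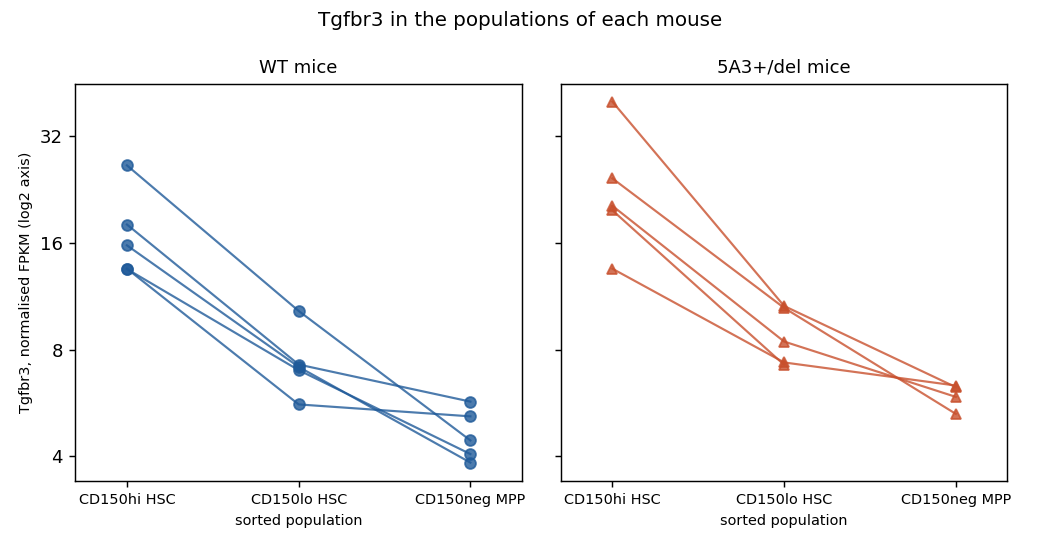
Normalised FPKM of Tgfbr3 (vertical log2 axis) in CD150hi HSC, CD150lo HSC and CD150neg MPP, with 1 line per mouse, for 5 WT mice on the left and 5 5A3+/del mice on the right (the last 5A3+/del mouse has no CD150neg MPP library). Every line falls from CD150hi HSC to CD150lo HSC, by a ratio of 1.84 to 3.76, and every line with a CD150neg value is lower again there.

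Receptor-regulated SMAD proteins are the direct substrates of the type I receptor, and Smad2 and Smad3 encode those of the TGF-β branch. Smad2, on chromosome 18 (76401234 to 76465385, plus strand), had a normalised FPKM of 10.2, 7.76, 15.5, 12.5 and 11.5 in WT CD150hi HSC and of 4.21, 12.9, 14.0, 13.6 and 13.0 in 5A3+/del CD150hi HSC, in which mouse 1 was far below the rest. CD150lo HSC had 11.6, 13.8, 14.1, 14.5 and 15.7 in WT and 14.0, 11.5, 12.1, 17.6 and 18.03 in 5A3+/del mice. CD150neg MPP had 17.6, 12.2, 16.6, 13.3 and 15.3 in WT and 14.8, 12.8, 11.9 and 17.96 in 5A3+/del mice. These groups overlapped throughout. CD150hi HSC minus CD150lo HSC was -0.34 (SE 0.16, adjusted p = 0.230) and CD150hi HSC minus CD150neg MPP was -0.38 (SE 0.16, adjusted p = 0.136). Without 5A3+/del mouse 1 these differences were -0.20 (adjusted p = 0.409) and -0.22 (adjusted p = 0.301).

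Smad3, on chromosome 9 (63494574 to 63605801, minus strand), had the highest mean level of the members. It was 22.7, 20.1, 20.6, 21.5 and 16.4 in WT CD150hi HSC and 20.5, 24.4, 23.4, 18.5 and 18.2 in 5A3+/del CD150hi HSC. The WT mean in CD150lo HSC was 19.6 ± 3.05 (SD, n = 5) and the 5A3+/del mean 19.96 ± 3.08 (n = 5). In CD150neg MPP it was 22.4, 18.8, 18.9, 17.4 and 14.5 in WT and 16.4, 18.6, 17.7 and 16.6 in 5A3+/del mice. Smad3 was higher in CD150hi HSC than in CD150neg MPP in 9 of 9 mice, but by a median ratio of only 1.13, and the log2 difference of 0.19 (SE 0.09) had an adjusted p of 0.196.

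Smad4 encodes the common SMAD, the shared partner of the receptor-regulated SMADs, and lies on chromosome 18 (73798663 to 73863434, minus strand). Its normalised FPKM was 17.5, 11.1, 17.2, 16.4 and 13.6 in WT CD150hi HSC and 18.1, 15.1, 17.2, 18.01 and 17.4 in 5A3+/del CD150hi HSC. CD150lo HSC had 19.4, 18.8, 19.9, 18.7 and 18.1 in WT and 17.8, 14.2, 18.8, 18.1 and 17.7 in 5A3+/del mice. CD150hi HSC minus CD150lo HSC was -0.17 (SE 0.08, adjusted p = 0.228), lower in 8 of 10 mice. In CD150neg MPP the WT mean was 18.2 ± 1.03 (SD, n = 5) and the 5A3+/del mean 17.3 ± 1.82 (n = 4), and the lowest library of the 3 populations, at 11.1, was that of WT mouse 2 in CD150hi HSC. Between genotypes the difference was 0.18 in CD150hi HSC (95% confidence interval -0.04 to 0.41), -0.13 in CD150lo HSC (-0.36 to 0.09) and -0.07 in CD150neg MPP (-0.31 to 0.16), the tightest intervals of the 10 genes.

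Smad7, on chromosome 18 (75527183 to 75555589, plus strand), encodes the inhibitory SMAD that binds the active type I receptor and is itself a target of the pathway. In WT CD150hi HSC its normalised FPKM was 14.5, 11.5, 7.85, 6.80 and 12.4, and in 5A3+/del CD150hi HSC it was 5.48, 4.96, 7.45, 9.95 and 8.07. In CD150lo HSC it was 10.51, 11.9, 10.3, 7.15 and 8.08 in WT and 10.1, 7.92, 11.0, 10.2 and 10.4 in 5A3+/del mice. In CD150neg MPP it was 8.45, 11.4, 11.6, 7.19 and 8.99 in WT and 10.1, 10.8, 14.1 and 9.60 in 5A3+/del mice. The lowest 2 of the 29 values were 5A3+/del CD150hi libraries, and the genotypes overlapped in every population, in CD150hi HSC between 6.80 and 9.95.

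The 5A3+/del mean of Smad7 in CD150hi HSC was 7.18 ± 2.02 (SD, n = 5), against 10.6 ± 3.20 (n = 5) in WT. The log2 difference of -0.49 (SE 0.19, 95% confidence interval -0.88 to -0.10) was the only genotype difference of a member whose interval excluded 0, and its adjusted p of 0.257 did not pass the threshold. In the same libraries 5 of 6 granulocyte and monocyte markers tested were lower in the 5A3+/del mean, with a median log2 difference of -2.12, 3 of 6 under an unadjusted p of 0.05 and 0 called. Over all genes 13.1% were under an unadjusted p of 0.05 and 0.156% were called. The part of the cells with these markers in the Smad7 difference was not tested. The Smad7 difference was -0.58 without WT mouse 3 (adjusted p = 0.205) and -0.63 to -0.38 as each mouse was left out. In CD150lo HSC the difference was 0.06 (-0.33 to 0.44) and in CD150neg MPP it was 0.21 (-0.20 to 0.62). The genotype effect in CD150hi HSC minus that in CD150neg MPP was -0.70 (SE 0.28, adjusted p = 0.516), so a difference between populations was not established for Smad7.

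Ski and Skil encode nuclear corepressors that bind SMAD complexes and hold target genes in check. Ski, on chromosome 4 (154528184 to 154596701, minus strand), had a normalised FPKM of 16.2, 13.6, 18.5, 22.5 and 20.9 in WT CD150hi HSC and of 12.2, 22.5, 19.7, 16.4 and 16.9 in 5A3+/del CD150hi HSC. CD150lo HSC had 14.7, 15.3, 11.6, 13.0 and 15.6 in WT and 21.1, 12.6, 15.96, 14.3 and 16.1 in 5A3+/del mice. CD150hi HSC minus CD150lo HSC was 0.24 (SE 0.11, adjusted p = 0.223), higher in 8 of 10 mice. Mouse 1 of the 5A3+/del group had values of 12.2 and 21.1 in these populations, and without it the difference was 0.34 (adjusted p = 0.0351). In CD150neg MPP the WT mean was 15.2 ± 1.99 (SD, n = 5) and the 5A3+/del mean 16.3 ± 1.59 (n = 4).

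Skil, on chromosome 3 (30993980 to 31021499, plus strand), was lower than Ski on the FPKM scale, with a mean over the libraries of 8.65 against 16.2. It was 7.37, 8.44, 9.07, 6.81 and 8.58 in WT CD150hi HSC and 7.30, 4.66, 10.0, 9.84 and 7.65 in 5A3+/del CD150hi HSC. The WT mean was 10.3 ± 2.58 (SD, n = 5) in CD150lo HSC and 8.84 ± 2.15 (n = 5) in CD150neg MPP, and the 5A3+/del means there were 9.40 ± 2.49 (n = 5) and 7.16 ± 2.11 (n = 4). CD150hi HSC minus CD150lo HSC was -0.26 (SE 0.14, adjusted p = 0.337), lower in 8 of 10 mice, and CD150hi HSC minus CD150neg MPP was 0.01 (-0.29 to 0.32).

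Counted over the group, limma called 0 of 10 members between genotypes in CD150hi HSC, where 0.156% of all 15409 genes tested were called, and 1 member, Smad7, had an unadjusted p under 0.05, as did 13.1% of all genes. In CD150lo HSC it called 0 of 10 members against 0.0324% of all genes, with 0 members under an unadjusted p of 0.05 against 6.87%. In CD150neg MPP it called 0 of 10 against 0.0454%, with 0 members under an unadjusted p of 0.05 against 4.27%. A voom fit on the recovered fragments also called 0 members in each population, 0 for the genotype effects compared between populations and 0 for CD150lo HSC minus CD150neg MPP. The median log2 difference of the members was 0.10, 0.05 and 0.12 in CD150hi HSC, CD150lo HSC and CD150neg MPP, beside medians of 0.0044, 0.011 and -0.0013 over all genes. No member separated the WT from the 5A3+/del libraries without overlap, a pattern found in 2.58%, 1.63% and 1.51% of all genes in the 3 populations. For the genotype effects compared between populations, limma called 0 of 10 members and 0% of all genes in each of the 3 contrasts, and an unadjusted p under 0.05 was found for 0, 0 and 1 member, against 3.98%, 5% and 7.96% of all genes.

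Between populations the members split differently. For CD150hi HSC minus CD150lo HSC 1 of 10 was called, Tgfbr3, beside 7.64% of all genes called in either direction and 4.23% called higher, and 6 of 10 had an unadjusted p under 0.05, as did 19.5% of all genes. For CD150hi HSC minus CD150neg MPP 1 of 10 was called, again Tgfbr3, beside 13.2% in either direction and 6.99% higher, and 6 of 10 had an unadjusted p under 0.05 against 24.9% of all genes. For CD150lo HSC minus CD150neg MPP 0 of 10 were called by limma, beside 0.292% of all genes, and 2 of 10, Tgfb1 and Tgfbr3, had an unadjusted p under 0.05 against 7.93%. The share of members called was thus close to the background in each contrast. The median log2 difference of the members was -0.17 for CD150hi HSC minus CD150lo HSC and -0.19 for CD150hi HSC minus CD150neg MPP, beside -0.0052 and -0.0046 over all genes, since 7 and 6 of the 10 lay below 0. Tgfbr3 was the only member whose libraries did not overlap between CD150hi HSC and CD150lo HSC, or between CD150hi HSC and CD150neg MPP, as was the case for 1.1% and 2.6% of all genes. No member was without overlap between CD150lo HSC and CD150neg MPP (0.11% of all genes).

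**Figure D3:**
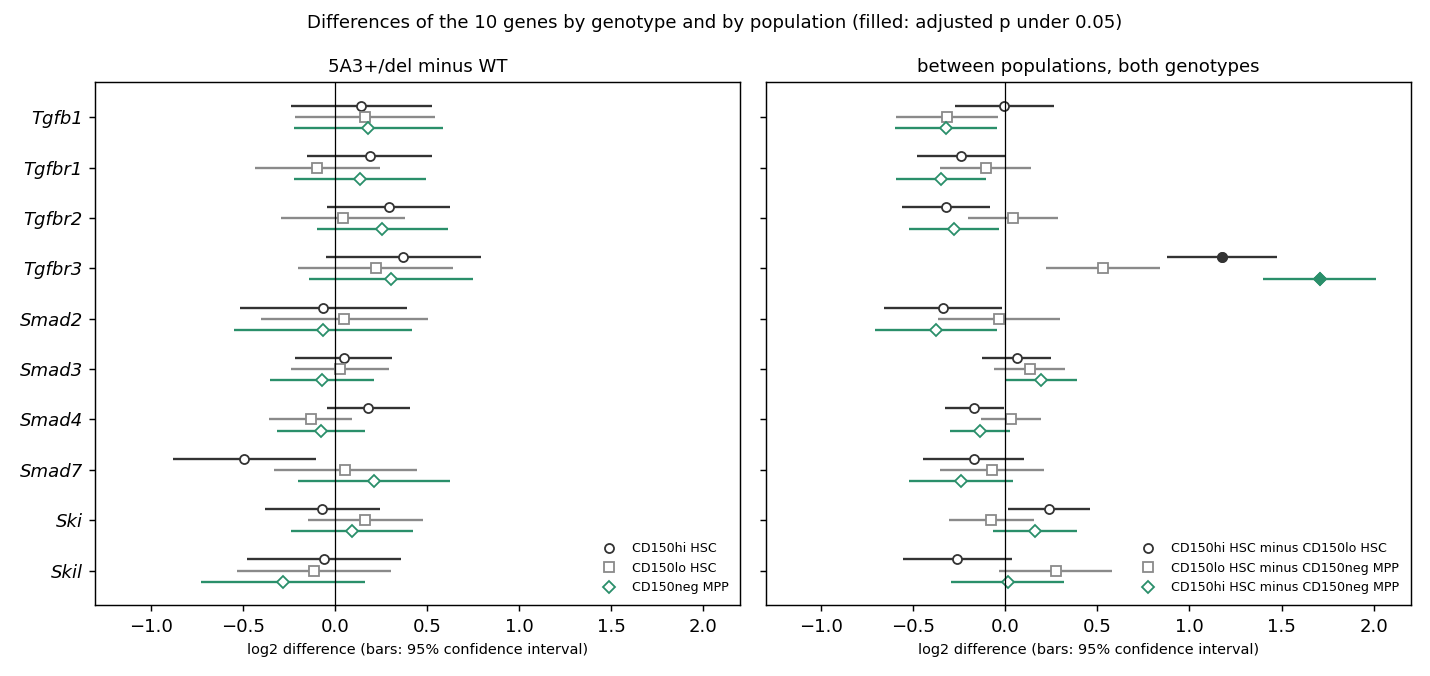
Log2 differences of the 10 genes (points) with their 95% confidence intervals (bars), for 5A3+/del minus WT in each population on the left and between populations over both genotypes on the right, where filled points mark an adjusted p under 0.05. The only filled points are Tgfbr3 at 1.18 and 1.71, and on the left the interval of Smad7 in CD150hi HSC, from -0.88 to -0.10, is the one that excludes 0.

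Marker genes of the sorted cells and of other cell types were read beside Tgfbr3. Over 8 HSC markers the summed deposited FPKM was 833 to 1170.0 in CD150hi HSC, 664 to 972 in CD150lo HSC and 750.0 to 1083 in CD150neg MPP. The summed deposited FPKM of 5 endothelial markers was 38.6 to 48.7 in CD150hi HSC, 18.4 to 31.7 in CD150lo HSC and 17.7 to 34.2 in CD150neg MPP. Of the 4 tested, 3 were called higher in CD150hi HSC over both CD150lo HSC and CD150neg MPP, beside 4.23% and 6.99% of all genes. Most of that sum was Tie1 and Esam. Of the other endothelial markers, Kdr was at most 2.96 FPKM in CD150hi HSC, against maxima of 0.658 for CD150lo HSC and 0.540 for CD150neg MPP. Cdh5 was at most 1.18, 1.49 and 1.47 in the same order, with 0 in 6 libraries. Kdr could pass the filter of an FPKM of 1 in 4 libraries only through CD150hi HSC. The filter thus favoured that direction for Kdr, and the count of endothelial markers called higher is no separate support for it. The sum of 7 megakaryocyte and platelet markers was 29.2 to 58.2 in CD150hi HSC, 33.6 to 55.7 in CD150lo HSC and 28.0 to 60.3 in CD150neg MPP, and of 6 tested 0 were called for CD150hi HSC minus CD150lo HSC and 2 were called higher for CD150hi HSC minus CD150neg MPP, with 4 of 6 under an unadjusted p of 0.05 in each. Over all genes 19.5% and 24.9% were under an unadjusted p of 0.05 in these contrasts. The 5 stromal markers in the table summed to 0.719 to 2.70, 1.75 to 4.18 and 2.36 to 5.10 in the same order, with Col3a1 at 0 in 18 libraries, and 4 T cell markers summed to at most 0.606 in CD150hi HSC and 1.60 elsewhere. Erythroid markers (6) summed to 5.55 to 18.4, 13.6 to 33.2 and 6.30 to 32.3, and B cell markers (5) to 6.65 to 32.2, 6.20 to 23.6 and 7.88 to 21.2. Granulocyte and monocyte markers (7) varied most between libraries, from 15.0 to 872 in CD150hi HSC, 21.5 to 1330.5 in CD150lo HSC and 7.22 to 241 in CD150neg MPP. In CD150hi HSC this sum was 57.5 to 872 in WT (median 302) and 15.0 to 118 in 5A3+/del mice (median 16.7). The part of these other cell types in the Tgfbr3 difference was not tested.

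The rest of the pathway was followed with 96 further genes of ligands, receptors, SMADs, regulators, partners, other signalling arms and targets, of which 74 passed the filter. Between genotypes limma and voom each called 0 of the 74 in each population, where limma called 0.156%, 0.0324% and 0.0454% of all genes in CD150hi HSC, CD150lo HSC and CD150neg MPP. In the same order 8, 6 and 2 of the 74 had an unadjusted p under 0.05, against 13.1%, 6.87% and 4.27% of all genes. For CD150hi HSC minus CD150lo HSC 10 of 74 were called higher (4.23% of all genes) and 2 lower (3.41% of all genes). For CD150hi HSC minus CD150neg MPP 11 of 74 were called higher (6.99% of all genes) and 6 lower (6.2% of all genes). For CD150lo HSC minus CD150neg MPP 0 of 74 were called by limma or voom (0.292% of all genes by limma), and 3 had an unadjusted p under 0.05 in limma, against 7.93% of all genes. By list, 4 of 11 tested genes of ligands and latency, 1 of 8 receptors and co-receptors, 0 of 3 other SMADs, 2 of 19 receptor and SMAD regulators, 1 of 14 partners and corepressors, 0 of 7 non-SMAD genes and 2 of 12 targets were called higher in CD150hi HSC than in CD150lo HSC, and 1 partner and 1 target were called lower. Over CD150neg MPP the genes called higher were 3 of ligands and latency, 1 receptor, 3 regulators, 2 partners and 2 targets, and those called lower were 1 of ligands and latency, 2 regulators, 1 partner, 1 non-SMAD gene and 1 target. Bmp4, Inhba and Ltbp4 of the ligand list passed the filter only through CD150hi HSC. The counts called higher are therefore partly set by the filter.

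Among the ligands, Bmp4, a bone morphogenetic protein, rose in CD150hi HSC over CD150lo HSC by 1.63 (SE 0.12, adjusted p = 3.8e-10) and over CD150neg MPP by 1.69 (SE 0.13, adjusted p = 1.5e-10). In CD150hi HSC the WT mean was 3.03 ± 1.55 (SD, n = 5) and the 5A3+/del mean 2.27 ± 0.668 (n = 5) on the normalised FPKM scale, and Bmp4 was at most 0.449 in any library of the other populations. Inhba, which encodes the subunit of activin A, rose by 1.63 (SE 0.18, adjusted p = 4.97e-07) and 1.88 (SE 0.19, adjusted p = 3.12e-08) in the same contrasts, from 0.526 to 5.99 in CD150hi HSC against at most 1.23 elsewhere. Ltbp4, which encodes a latent TGF-β binding protein, rose over CD150lo HSC by 0.86 (SE 0.14, adjusted p = 0.000143), with a WT mean of 1.77 ± 0.681 (n = 5) and a 5A3+/del mean of 1.48 ± 0.748 (n = 5) in CD150hi HSC. On the FPKM scale these values are low beside those of Tgfb1, whose mean was 15.0 in CD150hi HSC. Outside CD150hi HSC the highest deposited FPKM was 0.467 for Bmp4, 1.36 for Inhba and 1.05 for Ltbp4. These genes passed the filter of an FPKM of 1 in 4 libraries only through CD150hi HSC. The filter thus favoured the direction of their differences, and their p-values are no separate support for it.

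Among the targets, Cdkn1c, which encodes the cell cycle inhibitor p57, rose in CD150hi HSC by 1.17 over CD150lo HSC (SE 0.19, adjusted p = 8.01e-05) and by 1.29 over CD150neg MPP (SE 0.19, adjusted p = 1.61e-05). The WT mean in normalised FPKM was 14.6 ± 2.51 (SD, n = 5) in CD150hi HSC and 6.26 ± 1.81 (n = 5) in CD150lo HSC, and the 5A3+/del means were 14.2 ± 3.26 (n = 5) and 5.89 ± 2.81 (n = 5). Id1, an inhibitor of basic helix-loop-helix factors that responds to bone morphogenetic proteins, rose by 0.82 (SE 0.22, adjusted p = 0.0187) and 1.26 (SE 0.23, adjusted p = 0.000234), at a low level of 1.36 to 8.90 in CD150hi HSC. Zeb2, of the list of SMAD partners and corepressors rather than of targets, encodes a SMAD-binding repressor. It rose over CD150neg MPP by 0.82 (SE 0.12, adjusted p = 7.79e-06). In 5A3+/del CD150hi HSC mouse 1 had 21.4, with the other mice of that group between 9.62 and 11.2.

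Tgfbi, named for its induction by TGF-β, fell over both genotypes together by 0.79 in CD150hi HSC against CD150lo HSC (SE 0.14, adjusted p = 0.000395) and by 1.10 against CD150neg MPP (SE 0.15, adjusted p = 3.5e-06). In CD150hi HSC the WT mean was 5.90 ± 2.46 (SD, n = 5) and the 5A3+/del mean 5.71 ± 1.01 (n = 5). In CD150lo HSC it was 9.88, 5.61, 7.22, 8.13 and 6.51 in WT and 11.4, 20.3, 14.3, 12.8 and 16.2 in 5A3+/del mice, and in CD150neg MPP it was 9.53, 10.9, 10.6, 10.48 and 5.83 in WT and 21.8, 22.2, 16.97 and 14.3 in 5A3+/del mice. The WT ranges overlapped between CD150hi HSC (3.57 to 10.04) and both other populations, whereas the 5A3+/del range in CD150hi HSC, 4.47 to 7.17, lay below those of both. The genotypes did not overlap in CD150lo HSC and CD150neg MPP, as was the case for 1.63% and 1.51% of all genes. The genotype differences of 0.91 (SE 0.20, adjusted p = 0.1002) and 0.93 (SE 0.22, adjusted p = 0.218) did not pass the threshold, and the same difference was 0.01 (-0.40 to 0.43) in CD150hi HSC. The genotype effect in CD150hi HSC minus that in CD150lo HSC was -0.90 (SE 0.29, adjusted p = 0.999).

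**Figure D4:**
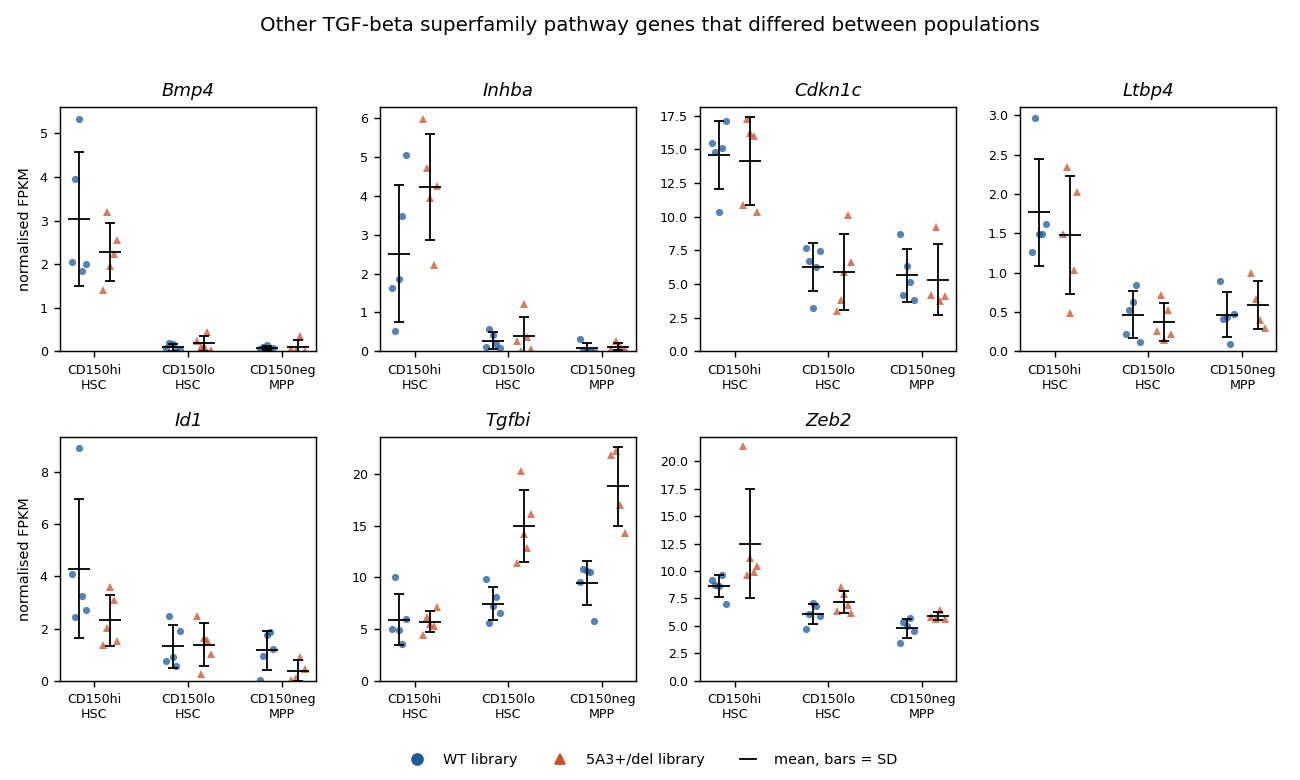
Normalised FPKM (vertical axes, each from 0) of 7 other pathway genes in CD150hi HSC, CD150lo HSC and CD150neg MPP, with circles for WT libraries, triangles for 5A3+/del libraries, and the mean with its SD for each group. Bmp4 stays at or below 0.449 outside CD150hi HSC, and Tgfbi separates 5A3+/del (11.4 to 20.3) from WT (5.61 to 9.88) in CD150lo HSC.

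Across the 29 libraries the genes with the profile most like that of Tgfbr3, by Pearson correlation of normalised log2 values among 8411 genes with a mean FPKM of at least 5, were Plxnc1 (r = 0.913), Mmrn1 (r = 0.909) and Apoe (r = 0.902). These libraries share 3 populations and 10 mice, so the correlations describe the order of the libraries and are not independent evidence. The nearest genes of the other members had lower correlations, from 0.6501 for Smad3 with Tal1 and 0.656 for Tgfb1 with Il4ra to 0.815 for Smad2 with Gna13 and 0.816 for Smad4 with Erbb2ip. Between them lay Ski with Prdm16 (r = 0.688), Tgfbr1 with Srsf3 (r = 0.728), Smad7 with Stk35 (r = 0.728), Skil with Vps35 (r = 0.765) and Tgfbr2 with Napsa (r = 0.784).

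The members were only loosely related to each other. Over the 45 pairs, r across the 29 libraries ran from -0.48 for Tgfbr1 with Smad3 to 0.49 for Tgfbr1 with Smad2. After subtraction of the group means it ran from -0.46 for Smad3 with Skil to 0.50 for Smad7 with Skil. Within groups Tgfbr1 had an r of 0.38 with Smad2 and of -0.38 with Smad3.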

How the data were processed

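RNA of the sorted cells was amplified, made into paired-end libraries and sequenced by the authors. According to the submitters' processing notes, reads were processed with Bowtie version 0.12.2 and HTSeq on mm9. The authors deposited FPKM of 30025 genes in 29 libraries, not quantile normalised. Whether reads of overlapping genes were shared or dropped is not given in the sources used here. Multiplying FPKM by the exon length of GENCODE vM1 (mm9) gave fragments per gene, of which 98.7% to 99.1% per library were whole within 0.1 among low values; the depth was 21229490 to 38797569 fragments (median 26967107), amplified and without molecular identifiers, so it covers counting error only.

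The 15409 genes that reached an FPKM of 1 in 4 or more libraries were transformed as log2(FPKM + 1) and quantile normalised. limma version 3.58.1 (R version 4.3.3) was fitted with 6 group means, and 9 contrasts were tested two-sided with Benjamini-Hochberg adjustment over all genes and a threshold of 0.05. Tables were read with Python version 3.11.15. The fit was tested on simulated data.

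The members, the 7 lists of 96 other pathway genes (95 in the table, 74 tested) and the 8 marker lists were chosen with earlier results of these data known. All members are named; of other pathway genes, those called in a comparison, at most the 6 with the largest difference; and the 3 genes nearest to a member by correlation, of which those of Tgfbr3 and the nearest of the others are printed. Groups follow the labelled genotype and cell type. A mouse code there gives the same animal across populations, and deviations from group means of such libraries had r of -0.042 to 0.235 (median 0.079, 28 pairs); a number shared by a WT and a 5A3+/del library marks different mice. Alternatives covered the pseudocount, filter, normalisation, variance trend, samples fitted, genotypes in the contrast, age, voom on recovered fragments, blocks and leaving out each mouse.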

Additional observations from a re-analysis of the deposited data

Results flagged for a closer look

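In 60 groups, 10 genes in 6 groups each, 7 held a library whose gap to its neighbour was large for the range of its group by Dixon's criterion. Chance marks about 1 in 20 groups. Smad2 in 5A3+/del CD150hi HSC replicate 1 was at 4.21 normalised FPKM, with the others between 12.9 and 14.0. Tgfbr2 in WT CD150neg MPP replicate 1 was at 4.65, with the others between 9.23 and 9.68, and Tgfbr2 in WT CD150hi HSC replicate 5 was at 9.84, with the others between 5.32 and 6.59. Tgfb1 in WT CD150lo HSC replicate 3 was at 18.9, with the others between 12.2 and 13.5. Smad4 in 5A3+/del CD150lo HSC replicate 2 was at 14.2, with the others between 17.7 and 18.8, and Smad4 in 5A3+/del CD150neg MPP replicate 4 was at 19.96, with the others between 16.1 and 16.7. Smad7 in 5A3+/del CD150lo HSC replicate 2 was at 7.92, with the others between 10.1 and 11.0. No group of Tgfbr1, Tgfbr3, Smad3, Ski or Skil held such a library.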

How the results depend on the processing

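No member was called between genotypes, or for a genotype effect compared between populations, in any alternative or with any mouse left out. Tgfbr3 stayed called in both contrasts with CD150hi HSC in every alternative, from 1.10 to 1.29 over CD150lo HSC (adjusted p at most 0.00136) and from 1.67 to 1.89 over CD150neg MPP (at most 3.48e-06). Leaving out each mouse gave 1 to 2 members called for CD150hi HSC minus CD150lo HSC (Tgfbr2 joined at -0.39 without WT mouse 5, Ski at 0.34 without 5A3+/del mouse 1) and 1 to 2 for CD150hi HSC minus CD150neg MPP (Tgfbr1 at -0.40, -0.40 and -0.39 without WT mouse 4, WT mouse 5 or 5A3+/del mouse 5, Tgfbr2 at -0.37 without WT mouse 1). In that contrast 2 members were called, Tgfbr1 being the second, with a filter of FPKM of at least 5 (-0.33), no quantile normalisation (-0.39), median scaling (-0.37) and voom on recovered fragments (-0.40); 1 member, Tgfbr3, was called for CD150lo HSC minus CD150neg MPP when only the groups compared were fitted. With a replicate block (the number between genotypes, the mouse between populations) the counts of members called were 0, 0, 0, 1, 0 and 1 in the first 6 contrasts, as without it, and Tgfbr3 in CD150lo HSC minus CD150neg MPP was 0.55 (adjusted p = 0.0788). WT and 5A3+/del libraries of the same number had r of -0.034 to 0.081 (median 0.0345, 14 pairs). The median for different numbers was -0.0126 (56 pairs). Libraries of the same mouse had a median of only 0.079, so these values cannot settle whether the numbers mark pairs. The causes were not tested.

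Counts over all genes moved more. Beside 24, 5 and 7 genes called between genotypes in CD150hi HSC, CD150lo HSC and CD150neg MPP, the alternatives gave 0 to 100, 0 to 31 and 0 to 7, and leaving out a mouse 4 to 40, 3 to 77 and 3 to 8. Beside 45 for CD150lo HSC minus CD150neg MPP they gave 6 to 54 and 16 to 45, beside 1177 for CD150hi HSC minus CD150lo HSC 490 to 1385, and beside 2033 for CD150hi HSC minus CD150neg MPP 949 to 2210. Of other pathway genes, 7 were called for CD150hi HSC minus CD150lo HSC, in place of 12, with the filter at 5. The count was also 7 with the contrast restricted to WT means in the fit of all libraries. For CD150hi HSC minus CD150neg MPP, in place of 17, 11 were called with that filter. With the contrast restricted to 5A3+/del means in the fit of all libraries, 8 were called. With a variance trend 1 was called between genotypes in CD150lo HSC, in place of 0.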
